A study of Mus musculus with 7 samples.

Results

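The interleukin-1 (IL-1) family genes of bone marrow-derived dendritic cells (BMDCs) were followed here through 10 genes of the 28666 in the deposited table. They were taken by symbol and comprised the agonist cytokines Il1a, Il1b, Il18 and Il33, the receptors and accessory chain Il1r1, Il1rl1 and Il1rap, and the antagonists and decoys Il1rn, Il1r2 and Il18bp. Poly(A) RNA sequencing compared 3 libraries of immature BMDCs with 4 libraries of mature BMDCs. The cells came from the bone marrow of female C57BL/6 mice of 6 to 8 weeks, were grown for 7 days with GM-CSF (20 ng/ml) and IL-4 (10 ng/ml), and then shared a Transwell chamber with tumour cells of the mouse colon carcinoma line MC38. Both groups were described by the study as flow-sorted after 24 h with 5 µM DON, a glutamine antagonist. The study's scheme for the experiment also names a DMSO vehicle, and the labels give no agent for single libraries. The groups therefore shared the cytokines, the tumour cells and the sort, and differed by the label immature or mature. The labels do not say whether libraries came from separate cultures or mice, so p-values measure only the spread between these libraries, which may be technical.

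IL-1 family cytokines are mostly made as precursors without a secretion signal. IL-1β and IL-18 are cut by caspase-1 in inflammasomes, whereas IL-1α and IL-33 are active when released from damaged cells. IL-1α and IL-1β bind IL-1R1, and IL-33 binds ST2 (the product of Il1rl1). Both receptors signal only after joining the accessory chain IL-1RAcP (Il1rap), through MyD88 and IRAK kinases to NF-κB. The receptor antagonist (Il1rn) occupies IL-1R1 without a signal, the decoy receptor IL-1R2 (Il1r2) binds IL-1 without signalling, and IL-18 binding protein (Il18bp) captures free IL-18. Dendritic cells make several of these cytokines and their inhibitors, which act on T cells and on other myeloid cells.

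The libraries held 54846746 to 67973086 counts. Levels are given as CPM, the counts of a gene relative to its library's total after scaling by trimmed mean of M-values (TMM), or as the deposited FPKM where genes are compared with each other. Differences were tested with edgeR's quasi-likelihood test over 17461 genes, and a gene was said to rise or fall in mature cells when its log2 fold change was 1 or more in size and its Benjamini-Hochberg adjusted p was under 0.05. Cd80 and Cd86, the costimulatory surface proteins drawn in the study's sorting scheme, had means of 27.0 and 39.7 CPM in immature and 151 and 411 CPM in mature cells. Counts of marker genes here and below stand beside 13.2% of all tested genes that rose and 9.95% that fell. Of 8 dendritic cell markers, 3 rose in mature cells (Zbtb46 from 25.6 to 106 CPM, Flt3 from 0.438 to 5.97 CPM and Ccr7 from 202 to 2481 CPM) and 5 did not pass, among them Itgax with 1386 and 1041 CPM. The summed level of these markers was 9298 to 9953 CPM in immature and 12360 to 17180 CPM in mature libraries. Most of this sum was Cd74 (means of 6604 and 8754 CPM), which did not pass (log2 fold change 0.41, edgeR adjusted p = 0.0542). The median log2 fold change of the list was 0.83, and both groups carried Itgax and Zbtb46. All 8 macrophage markers fell, with Csf1r at 732 and 119 CPM. Their summed level was 13510 to 14120 CPM in immature against 1566 to 2114 CPM in mature libraries, most of it from Lyz2 (11930 and 1442 CPM). Macrophage-like cells also express several IL-1 family genes, and the part of this shift in the values below was not tested. In such bulk samples fewer cells of a type and less RNA per cell cannot be told apart. Among the mature libraries, the third differed from the others by a median chi-square per gene of 17.7 to 25.6, against 4.26 to 5.27 among the other mature libraries.

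The promoters of 4 genes are shown because they make up the neighbouring cytokine genes Il1a and Il1b, whose values differed, and the cytokine Il18 with its inhibitor Il18bp, which moved in opposite directions. Each is the 250 bases before the annotated start in RefSeq on GRCm38.p6, written 5′ to 3′ on the gene's strand, with motif matches in capitals. The windows are chr2:129309973-129310222 (minus strand) for Il1a, chr2:129371140-129371389 (minus strand) for Il1b, chr9:50554450-50554699 (plus strand) for Il18 and chr7:102018233-102018482 (minus strand) for Il18bp.
Il1a: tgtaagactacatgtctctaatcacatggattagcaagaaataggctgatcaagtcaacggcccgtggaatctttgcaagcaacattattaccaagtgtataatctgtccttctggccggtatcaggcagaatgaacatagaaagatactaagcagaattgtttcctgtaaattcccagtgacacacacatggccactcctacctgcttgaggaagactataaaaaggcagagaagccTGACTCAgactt
Il1b: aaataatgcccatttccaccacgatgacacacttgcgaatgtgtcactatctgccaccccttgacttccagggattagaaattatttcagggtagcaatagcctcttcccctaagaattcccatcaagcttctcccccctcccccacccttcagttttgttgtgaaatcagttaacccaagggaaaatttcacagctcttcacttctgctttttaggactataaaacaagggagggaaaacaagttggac
Il18: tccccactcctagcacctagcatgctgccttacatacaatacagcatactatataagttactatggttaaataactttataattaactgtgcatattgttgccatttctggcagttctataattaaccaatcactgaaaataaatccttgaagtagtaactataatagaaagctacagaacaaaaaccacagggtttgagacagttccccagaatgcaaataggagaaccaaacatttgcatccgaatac
Il18bp: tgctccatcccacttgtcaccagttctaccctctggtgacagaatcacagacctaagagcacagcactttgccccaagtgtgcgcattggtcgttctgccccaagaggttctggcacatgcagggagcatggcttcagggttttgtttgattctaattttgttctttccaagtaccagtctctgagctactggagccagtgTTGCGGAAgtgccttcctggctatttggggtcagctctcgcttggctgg
The capitals mark an AP-1 match in Il1a, ending 6 bases before the start, and a C/EBP match in Il18bp, from 49 to 42 bases before it. Neither strand of the Il1b and Il18 windows matched any of the 6 motifs searched, so 1 window of each pair held a match.

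Both strands of 15 windows covering all 10 genes were searched, since some genes have more than 1 annotated start. The motifs were AP-1 (TGANTCA), C/EBP (TTGCNNAA), PU.1 (GAGGAAGT), GAS (TTCNNNGAA), CRE (TGACGTCA) and kappa B. C/EBP, a family of factors of myeloid cells, matched in windows of 4 genes (Il18bp, Il1r1, Il1rl1 and Il33) and AP-1 in 2 (Il1a and Il1rn). GAS, the STAT binding motif, matched in 1 (Il1r2), and kappa B in 1 (Il1r1, at its other start). No 2 matches overlapped. Counted by window, as the shares below are, C/EBP matched in 4 of 15, AP-1 in 2, and GAS and kappa B in 1 each. Over 32817 promoter windows of all genes the shares with a match were 9.57% for C/EBP, 6.75% for AP-1, 7.01% for GAS, 7.25% for kappa B, 2.44% for PU.1 and 1.55% for CRE. The C/EBP matches occurred both in genes that fell (Il18bp, Il1rl1) and in a gene that rose (Il33). A match describes the letters of a window and not binding.

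Positions of genes below are those of the deposited table, read as GRCm38. All 10 genes passed the filter on low counts and were tested. In mature cells 3 rose (Il1b, Il18 and Il33) and 3 fell (Il1rap, Il18bp and Il1rl1), while 4 did not meet the criteria. Of all tested genes 23.1% met them, 13.2% higher and 9.95% lower in mature cells. On adjusted p alone the count was 7 of 10, against 46.1% of all tested genes. The median log2 fold change of the 10 genes was -0.19, and that of all tested genes was 0.05. The 3 genes that rose were agonist cytokines, and those that fell were a receptor, the accessory chain and an IL-18 inhibitor. For 8 of the 10 genes the mature libraries lay all above or all below the immature ones, as for 52.1% of all tested genes. Il1b and Il1r1 were the exceptions.

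**Figure D1:**
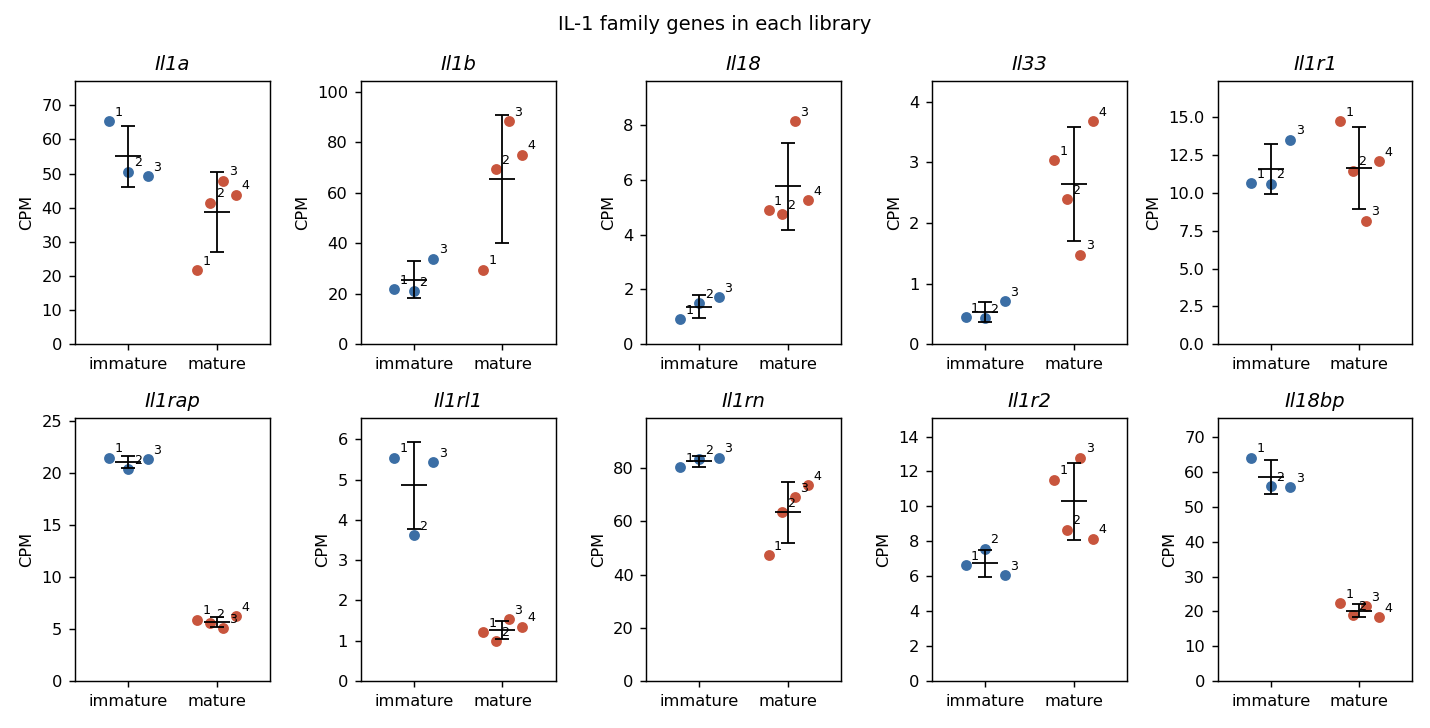
Level of each of the 10 genes in every library, in CPM on a linear axis from 0, with immature libraries in blue and mature libraries in red, numbered by replicate. Horizontal bars are group means with SD. Il18 and Il33 lie higher in all 4 mature libraries, Il1rap, Il18bp and Il1rl1 lie lower, and Il1b overlaps through the first mature library.

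Of the agonists, Il1b (ENSMUSG00000027398, chr2:129364570-129371139, minus strand) encodes IL-1β, the secreted pyrogenic cytokine of the family. Its level was 21.7, 20.97 and 33.9 CPM in immature libraries 1 to 3 and 29.5, 69.4, 88.4 and 75.0 CPM in mature libraries 1 to 4. The first mature library thus lay within the immature range, and the other three lay above it. The means were 25.5 ± 7.25 CPM (SD, n = 3) and 65.6 ± 25.3 CPM (SD, n = 4), and Il1b rose with a log2 fold change of 1.36 (SE 0.35, edgeR adjusted p = 0.0125). The call was lost without the first immature library (edgeR adjusted p = 0.0534) or the second (0.0570), with log2 fold changes of 1.25 and 1.23. Without the first mature library the edgeR adjusted p was 0.000382. A list of cardiac muscle markers moved across the mature libraries in a like way: its summed level was 4.96 to 5.61 CPM in immature libraries, 26.7 CPM in the first mature library and 684 to 805 CPM in the other three. In the first mature library most of that sum was Tnni3 (23.98 CPM, against 3.17 to 3.83 CPM in immature libraries). No other gene of the list was above 0.758 CPM there. The part of the cardiac muscle list in the Il1b result was not tested.

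Il1a (ENSMUSG00000027399, chr2:129299610-129309972, minus strand), the neighbour of Il1b, encodes IL-1α, a cytokine that also acts in cell-bound form. Its level was 65.3, 50.6 and 49.2 CPM in immature libraries and 21.8, 41.5, 47.9 and 43.8 CPM in the mature libraries. Every mature library lay below every immature one, by as little as 49.2 against 47.9 CPM. The log2 fold change of -0.51 (SE 0.25, 95% interval -1.07 to 0.05) did not pass (edgeR adjusted p = 0.126). The first mature library was the lowest of the mature libraries for both Il1a and Il1b.

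Il18 (ENSMUSG00000039217, chr9:50554827-50581840, plus strand) encodes a cytokine that drives interferon-γ production by T and NK cells. It was low in immature cells, at 0.903, 1.49 and 1.72 CPM, and reached 4.88, 4.75, 8.13 and 5.26 CPM in mature cells. These values rest on 53 to 111 counts in immature and 314 to 430 counts in mature libraries. The groups did not overlap, and Il18 rose with a log2 fold change of 2.07 (SE 0.30, edgeR adjusted p = 0.000586). The call was kept in all 17 alternative analyses, which include adjusted p alone, where it could not be lost. The third mature library stood above the other three.

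Il33 (ENSMUSG00000024810, chr19:29925114-29960718, plus strand) encodes a nuclear alarmin that is best known from epithelial and stromal cells. Its level was 0.443, 0.431 and 0.713 CPM in immature libraries (24 to 46 counts) and 3.03, 2.39, 1.48 and 3.68 CPM in mature libraries (78 to 230 counts). All mature libraries were higher, the third least so, and Il33 rose with a log2 fold change of 2.31 (SE 0.39, edgeR adjusted p = 0.00125). Of the stromal markers, Col1a1 was at 3.75 to 7.91 CPM over all libraries and Pdgfra at most at 1.07 CPM. Of the epithelial markers, which the MC38 line could carry, Epcam was between 0.170 and 1.602 CPM and the summed list was 69.9 to 77.3 CPM in immature and 59.2 to 69.7 CPM in mature libraries, with 1 of its 5 tested genes (Epcam) higher in mature cells. The summed fibroblast and stromal list was 16.5 to 28.6 CPM in immature and 30.5 to 39.8 CPM in mature libraries, with 3 of its 8 genes higher in mature cells. The matrix gene Dcn was at 0.561 CPM in the first mature library and 8.08 to 8.68 CPM in the other three. The part of stromal, epithelial or cardiac muscle RNA in the Il33 result was not tested. As Il33 is a low-level gene, its log2 fold change on the log2(FPKM + 1) scale was 0.67, below the fold criterion.

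Of the receptors, Il1r1 (ENSMUSG00000026072, chr1:40225080-40317257, plus strand) encodes the signalling receptor of IL-1α and IL-1β. Its level was 10.6, 10.6 and 13.5 CPM in immature libraries and 14.7, 11.5, 8.15 and 12.1 CPM in mature libraries. The group means were both 11.6 CPM, and the ranges overlapped. The difference on the log2 scale lay between -0.45 and 0.46 (95% interval, edgeR adjusted p = 0.988), and its sign changed with the libraries left out, from -0.13 to 0.16.

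Il1rap (ENSMUSG00000022514, chr16:26581704-26730117, plus strand), the accessory chain shared by the IL-1, IL-33 and IL-36 receptors, was measured evenly within each group. It stood at 21.5, 20.4 and 21.3 CPM in immature libraries and at 5.90, 5.58, 5.05 and 6.21 CPM in mature libraries. The means were 21.1 ± 0.592 CPM (SD, n = 3) and 5.68 ± 0.493 CPM (SD, n = 4), and the gene fell with a log2 fold change of -1.89 (SE 0.11, edgeR adjusted p = 2.6e-06). The fitted level of this chain was 3.71-fold lower in mature cells, and its ratio to Il1r1 is compared below.

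Il1rl1 (ENSMUSG00000026069, chr1:40429570-40448148, plus strand) encodes ST2, the IL-33 receptor of mast cells and innate lymphoid cells, in a membrane and a soluble form that gene counts cannot separate. It was at 5.54, 3.61 and 5.42 CPM in immature and 1.21, 0.983, 1.53 and 1.34 CPM in mature libraries (201 to 350 against 65 to 84 counts). It fell with a log2 fold change of -1.94 (SE 0.24, edgeR adjusted p = 0.000220), and the groups lay apart. Both chains of the IL-33 receptor were therefore lower in the cells in which the Il33 transcript was higher. The mast cell and basophil genes Ms4a2 and Cpa3 were at most 0.342 and 0.710 CPM in any library, although 2 of 6 tested genes of their list rose and its summed level was 8.34 to 9.62 CPM in immature and 38.6 to 48.9 CPM in mature libraries. Of the T, NK and innate lymphoid list 2 of 7 genes rose, with Cd3e at most at 0.363 CPM and a summed level of 119.7 to 124.2 CPM in immature and 255.0 to 354.7 CPM in mature libraries. The sums were carried by Kit and Il7r: without Kit the first was 3.07 to 3.70 CPM in immature and 5.00 to 8.87 CPM in mature libraries, and without Il7r the second was 1.503 to 2.249 and 1.925 to 2.796 CPM. The part of such cells in the Il1rl1 result was not tested.

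**Figure D2:**
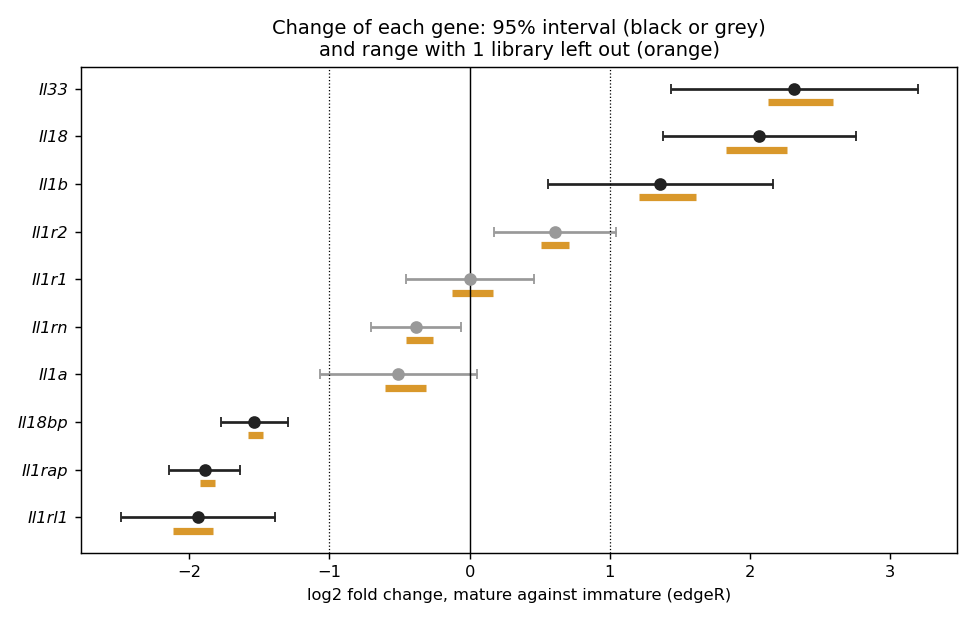
log2 fold change of each gene, mature against immature, from edgeR on 3 and 4 libraries. Points with horizontal bars give the estimate and its 95% interval (black where the criteria were met, grey where not), orange bars the range of estimates with 1 library left out, and dotted lines a log2 fold change of 1 in either direction; the orange bars of the 6 genes in black stay beyond the dotted lines, and that of Il1r1 crosses 0.

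Of the antagonists and decoys, Il1rn (ENSMUSG00000026981, chr2:24336853-24351494, plus strand) encodes the IL-1 receptor antagonist. Its level was 80.4, 83.5 and 83.9 CPM in immature libraries and 47.2, 63.5, 69.2 and 73.6 CPM in mature libraries. The immature libraries lay close together and above all mature ones. The log2 fold change was -0.38 (SE 0.14) and did not pass (edgeR adjusted p = 0.0543). Over the alternatives the adjusted p ran from 0.0202 to 0.186, with log2 fold changes from -0.48 to -0.25, so the fold criterion was not reached in any of them.

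Il1r2 (ENSMUSG00000026073, chr1:40074079-40125231, plus strand), the decoy receptor, was at 6.63, 7.57 and 6.04 CPM in immature and at 11.5, 8.66, 12.8 and 8.16 CPM in mature libraries. All mature values were higher, and the adjusted p passed (0.0292, edgeR), but the log2 fold change of 0.61 (SE 0.19) did not reach 1. Without the first immature, the third immature or the first mature library its adjusted p was 0.0903, 0.110 or 0.0604. Neutrophils are known for IL-1R2 and IL-1 receptor antagonist, and of that cell type's list 3 of 7 tested genes fell, with Ly6g at most at 0.473 CPM and a summed level of 373.6 to 387.0 CPM in immature and 57.5 to 88.8 CPM in mature libraries. The sum was carried by Mmp8 (360.5 and 48.2 CPM), without which it was 19.7 to 23.3 CPM in immature and 22.3 to 29.5 CPM in mature libraries, and Cxcr2 was higher in mature cells, at 21.3 against 11.3 CPM (log2 fold change 0.91, edgeR adjusted p = 0.00184), short of the fold criterion. Their part in the Il1r2 and Il1rn values was not tested.

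Il18bp (ENSMUSG00000070427, chr7:102014885-102018197, minus strand), the secreted inhibitor of IL-18, was at 64.1, 56.0 and 55.7 CPM in immature and at 22.3, 18.9, 21.5 and 18.3 CPM in mature libraries. The means were 58.6 ± 4.77 CPM (SD, n = 3) and 20.2 ± 1.93 CPM (SD, n = 4). It fell with a log2 fold change of -1.53 (SE 0.10, edgeR adjusted p = 6.0e-06). The call was kept in all 17 alternative analyses, which include adjusted p alone, where it could not be lost. The window shown above for Il18bp held a C/EBP match and that of Il18 none, and any link of this to their levels was not tested.

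The third mature library had the highest mature CPM for the 4 genes with the shortest summed exons, Il18, Il1b, Il1r2 and Il1a (1031 to 1974 bases). It had the lowest mature CPM for Il33, Il1r1 and Il1rap (2886, 6363 and 11360 bases). Il1rl1, with 6894 bases, was highest in that library, against this order. Il18bp and Il1rn (3026 and 5535 bases), both longer than Il33, also went against it. Each ranked 2 from the top in that library, with log2 differences to the other mature libraries of 0.12 and 0.17. Against the average of its group's remaining libraries, the log2 difference ran from 0.71 for Il18 to -1.04 for Il33. The directions of the 6 genes that rose or fell were the same without that library.

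Because library scaling cancels in a ratio of 2 genes of the same library, 5 ratios of inhibitors or receptor chains were compared, as log2 of the counts with 0.5 added. Two-sided exact permutation tests over the 35 ways to label 3 and 4 libraries doubled the smaller tail to give p, which cannot go below 0.0571. As the share of labelings with an absolute difference at least as large, a choice made after the data were seen, the smallest p is 0.0286. The ratio of Il18bp to Il18 was 6.14, 5.22 and 5.01 on the log2 scale in immature libraries and 2.19, 1.99, 1.40 and 1.80 in mature libraries. The ratio of inhibitor to cytokine was thus 12.2-fold lower in mature cells, the largest difference of the 5 (exact permutation p = 0.0571, adjusted p = 0.0952). By the absolute difference, this ratio and those of Il1rn to Il1b and Il1r1 to Il1rap each had an exact permutation p of 0.0286 and an adjusted p of 0.0476, so their calls depend on how the two-sided p is formed. In FPKM, which takes length into account, the mean ratio was 16.1 in immature and 1.25 in mature cells.

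The ratio of Il1rn to Il1b was 1.89, 1.99 and 1.31 in immature libraries and 0.68, -0.13, -0.35 and -0.03 in mature libraries, all on the log2 scale. Per length, as the ratio of FPKM, it was 1.28, 1.37 and 0.853 in immature and 0.552, 0.315, 0.270 and 0.338 in mature libraries. On this scale of summed exons the antagonist was above the cytokine in the first 2 immature libraries and below it in all others. That order depends on the transcript assumed. With the lengths of the longest coding transcripts the means of Il1rn and Il1b were 29.3 and 16.45 in immature and 24.2 and 45.4 in mature cells. The ratio was 3.22-fold lower in mature cells (exact permutation p = 0.0571, adjusted p = 0.0952), and the groups lay apart although those of Il1b alone did not. Against Il1a, the antagonist showed no such shift, with a log2 difference of 0.16 and overlapping groups (exact permutation p = 0.514). The ratio of the receptor Il1r1 to its accessory chain Il1rap was 3.67-fold higher in mature cells, with mean log2 ratios of -0.87 and 1.00 (exact permutation p = 0.0571, adjusted p = 0.0952). The decoy Il1r2 against Il1r1 differed by 0.61 on the log2 scale with overlapping groups, and the third mature library stood at 0.65 where the other three were below 0 (exact permutation p = 0.114, adjusted p = 0.143).

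**Figure D3:**
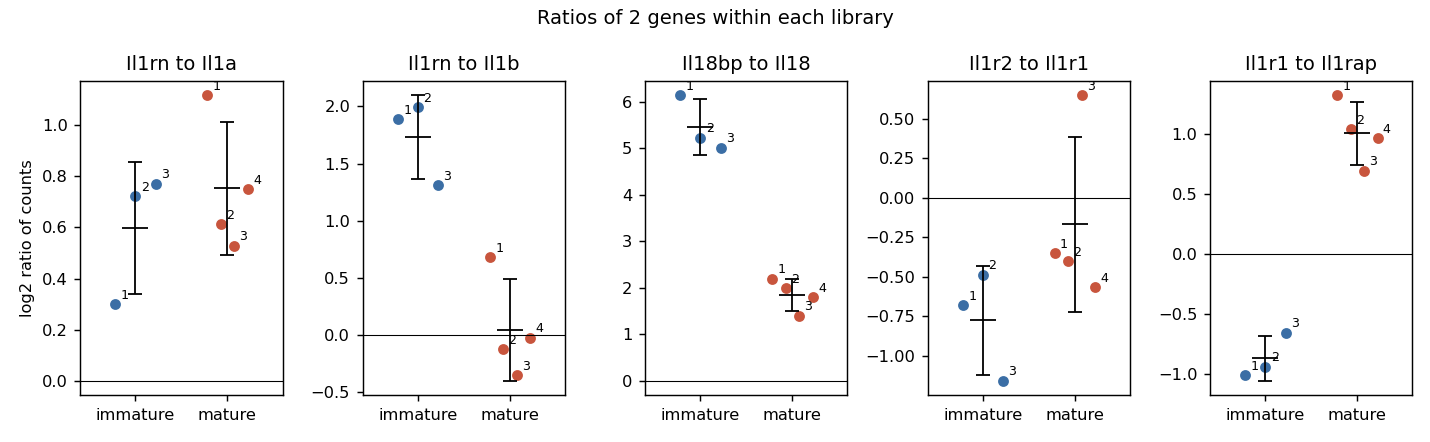
log2 ratio of the counts of 2 genes in each library, immature in blue and mature in red, numbered by replicate, with group means and SD; the axes differ between panels. The Il18bp to Il18 ratio had means of 5.46 and 1.84, and the Il1rn to Il1b and Il1r1 to Il1rap ratios also have no overlap between the groups.

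Per length, on the deposited FPKM scale, the members spanned a wide range of levels. In immature cells the order of the means was Il1a (24.5 FPKM), Il18bp (17.0), Il1rn (13.1), Il1b (11.7), Il1r2 (3.10), Il1rap (1.63), Il1r1 (1.59), Il18 (1.16), Il1rl1 (0.617) and Il33 (0.160). The library ranges of neighbours overlapped only for Il1rn with Il1b and for Il1rap with Il1r1. In mature cells the order was Il1b (32.3 FPKM), Il1a (18.5), Il1rn (10.8), Il18bp (6.32), Il18 (5.22), Il1r2 (5.07), Il1r1 (1.74), Il33 (0.868), Il1rap (0.473) and Il1rl1 (0.173). There, neighbours overlapped except for Il1rn with Il18bp, Il1r2 with Il1r1, and Il1rap with Il1rl1.

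Il1b moved from the fourth to the first place of the order, and Il33 from the last to the eighth, above both chains of its receptor on this scale. The FPKM follow the summed exons of each gene, which overstate the transcript of genes with long alternative exons: 11360 bases for Il1rap and 5535 for Il1rn, against 4520 and 2474 for their longest coding transcripts. With the latter lengths Il1rn had the highest mean in immature cells (29.3), Il1rap in mature cells reached 1.19 and lay above Il33 (0.984), and 9 of the 20 places in the 2 orders changed. Levels of these genes relative to each other therefore depend on the transcript assumed, while a length common to both groups cancels within 1 gene.

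**Figure D4:**
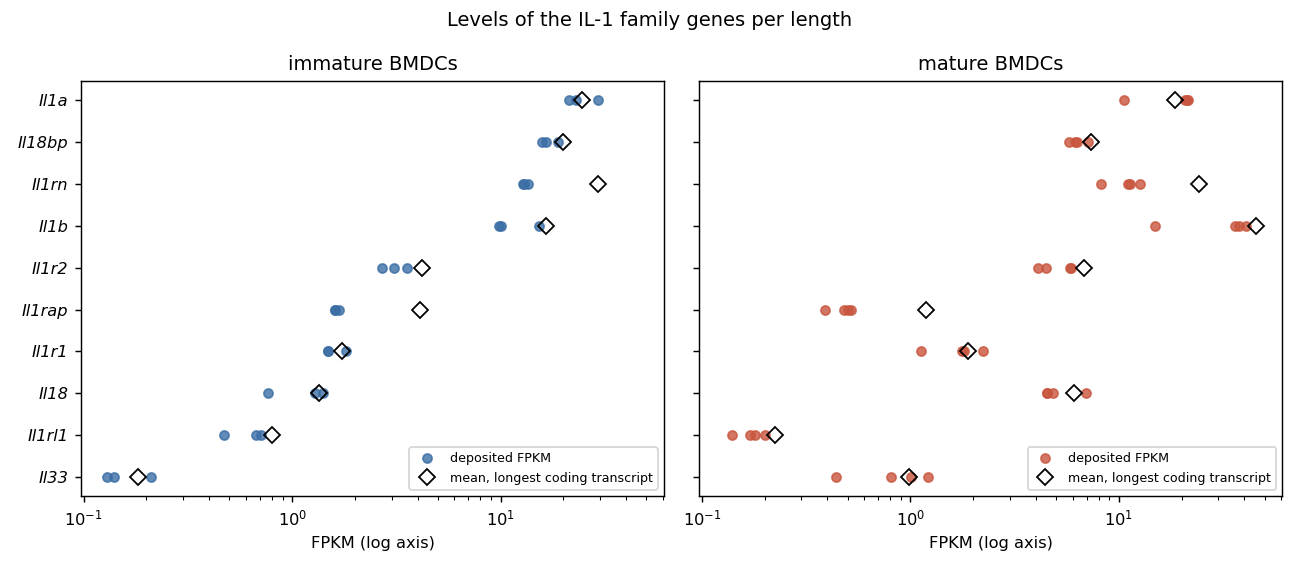
FPKM of each gene in every library on a log axis, immature on the left and mature on the right, with genes in the order of the immature means. Diamonds are group means rescaled to the longest coding transcript; Il1rn and Il1rap move most, since their summed exons are far longer.

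Il1r2, Il1r1 and Il1rl1 lie in a cluster of receptor genes on chromosome 1, in the GRCm38 positions of the table, all on the plus strand. It runs over 477.6 kb from Il1r2 through Il1r1, Il1rl2 (chr1:40324610-40365471), Il1rl1 and Il18r1 (chr1:40465552-40500854) to Il18rap (chr1:40515362-40551705). Neighbours in the cluster differed in direction. Il1rl2, the IL-36 receptor, and Il1rl1 fell (log2 fold changes -1.62 and -1.94), while Il18r1 and Il18rap, the ligand-binding and accessory chains of the IL-18 receptor, rose (2.34 and 1.07). Il1r1 stood between them at 0.00 and Il1r2 at 0.61. The 2 cytokine genes that neighbour each other on chromosome 2, Il1a and Il1b, span 71.53 kb and gave log2 fold changes of -0.51 and 1.36.

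**Figure D5:**
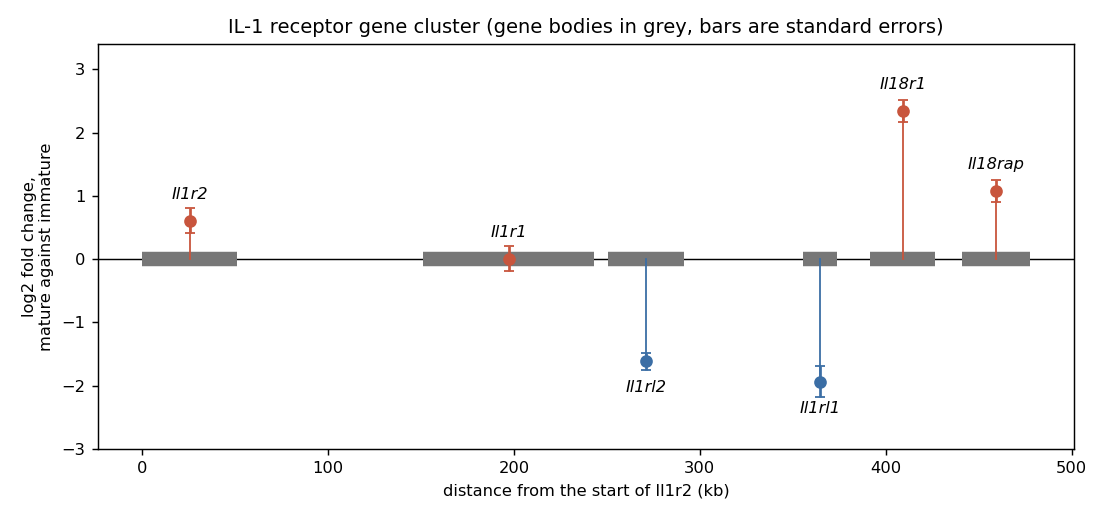
log2 fold change, mature against immature, of the 6 receptor genes along the chromosome 1 cluster, against distance from the start of Il1r2 in kb. Grey blocks are gene bodies, and bars are standard errors from edgeR; the fall of Il1rl2 and Il1rl1 (-1.62 and -1.94) is flanked by Il1r1 at 0.00 and Il18r1 at 2.34.

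Other genes of the pathway were read from 3 lists. The counts of each list stand beside 13.2% of all tested genes that rose and 9.95% that fell. Of 5 further family ligands and receptors tested, 3 rose (Il18r1, Il18rap and Sigirr) and 2 fell (Il1rl2 and Il1f9), with a median log2 fold change of 1.07. Il18r1 was at 11.8, 9.74 and 11.5 CPM in immature and at 73.6, 53.7, 47.2 and 48.6 CPM in mature libraries (SE 0.18, edgeR adjusted p = 1.1e-05). All mature libraries were far above the immature ones, so that the receptor of IL-18 and its cytokine were both higher while the binding protein was lower. Il18rap, named after its values were seen, rose from a mean of 17.1 to 36.0 CPM (edgeR adjusted p = 0.00122), but its log2 fold change was 0.91 without the first mature library, under the criterion. Sigirr, an inhibitory receptor of the family, rose from 29.6 to 66.1 CPM (log2 fold change 1.16, edgeR adjusted p = 0.000344). Il1rl2 fell from 89.5 to 29.2 CPM (edgeR adjusted p = 2.1e-05), and the IL-36γ gene Il1f9, also named after its values were seen, from 5.18 to 1.896 CPM (log2 fold change -1.45, edgeR adjusted p = 0.00345). Il1f5 and Il1f6 had at most 4 counts in any library and were not tested.

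Of 16 tested genes of processing and release, 1 rose, 5 fell and 10 did not pass, with a median log2 fold change of -0.70. Nlrp3, the sensor of the best-studied inflammasome, fell from a mean of 89.7 to 22.4 CPM (log2 fold change -2.01, edgeR adjusted p = 4.6e-06). Nlrp1b, another inflammasome sensor, fell from 18.1 to 3.22 CPM (log2 fold change -2.49, edgeR adjusted p = 2.4e-05). The ATP-gated channel P2rx7, an upstream trigger of NLRP3 that was named after its values were seen, went from 46.9 to 9.57 CPM (log2 fold change -2.29, edgeR adjusted p = 2.5e-05). Mefv, which encodes pyrin, was the gene that rose, from 4.26 to 19.4 CPM (log2 fold change 2.19, edgeR adjusted p = 2.8e-06). Of the genes shared by inflammasomes, also named after their values were seen, Casp1 had a log2 fold change of -0.16 (edgeR adjusted p = 0.170), and the adaptor Pycard one of -0.998 that was just short of the criterion (edgeR adjusted p = 0.00239). Without the third mature library that of Pycard was -1.19, past the criterion. Casp4 and the sensor Aim2, named after their values were seen, were higher in all mature libraries but short of the fold criterion. Their log2 fold changes were 0.71 and 0.45 (edgeR adjusted p = 0.00178 and 0.00431).

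Of 20 signal transduction genes, 1 rose, 2 fell and 17 did not pass, against 23.1% of all tested genes past the criteria. The median log2 fold change of this list was -0.22. Traf6, the ubiquitin ligase downstream of IRAK kinases, rose from 67.8 to 149 CPM (log2 fold change 1.14, edgeR adjusted p = 0.000267). Peli2, a ligase acting on IRAK proteins, fell from 85.0 to 31.2 CPM (log2 fold change -1.44, edgeR adjusted p = 7.6e-06). Nfkbiz, an IL-1-induced regulator of NF-κB target genes, was spread widely in immature libraries, at 58.8, 28.2 and 15.1 CPM, and was at 11.9, 13.8, 16.4 and 8.73 CPM in mature ones. The groups overlapped through the third mature library. Its log2 fold change of -1.42 passed (edgeR adjusted p = 0.0195) but was -0.78 (adjusted p = 0.0827) without the first immature library, and the adjusted p was 0.0509 without the fourth mature library. Myd88 and Irak2, chosen after their values were seen, had log2 fold changes of -0.92 and -0.93 with edgeR adjusted p-values of 9.4e-05 and 1.6e-05, short of the fold criterion. In the 3 lists together 14 of 41 tested genes met the criteria, against 23.1% of all tested genes. These lists were also chosen with earlier results known, so the comparison is descriptive.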

How the data were processed

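The labels give 7 libraries of flow-sorted BMDCs in 2 groups, immature (3) and mature (4). The authors deposited 1 table with whole-number read counts per gene and FPKM. Their processing notes name cutadapt 1.9, HISAT2 2.2.1, StringTie 2.1.6, DESeq2, edgeR and the build mm9. The counting program is not given in the sources used here. The table's positions equal those of GENCODE M21 (GRCm38) for 87.2% of shared gene IDs and were read as GRCm38. Among 5180 genes at 5 FPKM or more throughout, counts over deposited FPKM followed the summed exon length within 2% for 99.0%. The ratio to that length was first divided by its median in each library. The library kit marks strand. Reads that a gene shares with an overlapping gene cannot be assigned here.

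Counts were fitted with edgeR 4.0.16 (filterByExpr, TMM, quasi-likelihood test, group as the only term), and p-values were adjusted by Benjamini-Hochberg over 17461 genes. The study states the fold and p criteria but not the test. DESeq2 1.42.0, other scalings, no filter, limma 3.58.1 on log2(FPKM + 1) or log2(FPKM + 0.1), a replicate block and the omission of libraries were alternatives. Of 200 genes changed 4-fold in simulated counts, edgeR recovered 70.5%, with 6 false calls among 16911 genes. The simulation changed as many genes up as down, whereas 4037 genes were called in the data, 2300 higher and 1737 lower. Its false calls therefore do not measure those of the real comparison. Same-numbered immature and mature libraries had correlations of deviations of 0.03, 0 and 0.01, so the numbers were not taken as pairs.

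The 10 genes and all lists were chosen with earlier results of these data known. Pathway genes were named as the 3 of each list with the smallest adjusted p among those past the criteria; others were named after their values were seen, as stated. Ratios were tested by two-sided exact permutation (the smaller tail doubled) with adjustment over 5. No column of another series was present. Protein sequences were not used here.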

Additional observations from a re-analysis of the deposited data

Results flagged for a closer look

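Of 33 levels and ratios checked in the 4 mature libraries, 3 had 1 library apart from the rest, where chance gives about 1 in 20. The measure is the gap of the extreme library to its nearest neighbour divided by the range; values over the 95% critical value of Dixon's test are given. In all 3 it was the third mature library, at the high end. For Il18, with 8.13 CPM against 4.75 to 5.26 CPM, the gap took up 0.848 of the range. For the inhibitory receptor Sigirr, with 86.1 CPM against 57.2 to 61.7 CPM, it was 0.843. For the inflammasome adaptor Pycard, with 127 CPM against 75.3 to 78.8 CPM, it was 0.932.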

How the results depend on the processing

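Over all genes the count of 4037 changed by over 1.5 times with limma on log2(FPKM + 1) (1768), on log2(FPKM + 0.1) (2561), without a filter on that scale (1716) and by adjusted p alone (8053). With 1 library left out it ran from 3646 to 4052. Of the 10 IL-1 family genes, 6 met the criteria by DESeq2, by every scaling and without a filter in edgeR, 5 to 6 with 1 library left out, 3 with limma on log2(FPKM + 1) with or without the filter, 4 with limma on log2(FPKM + 0.1) (whose filter left 8 of the 10, without Il33 and Il1rl1), and 7 by adjusted p alone. On the log2(FPKM + 1) scale the fold changes of Il1rap (-0.84), Il33 (0.67) and Il1rl1 (-0.46) were below 1; this scale understates changes of low genes. Pathway calls numbered 9 on that scale with or without the filter, 28 by adjusted p alone, and 13 to 15 with 1 library left out. Total counts as the only scaling moved the median of all genes from 0.05 to 0.16, and Il1a (-0.41) and Il1rn (-0.28) stayed below 0. With the longest coding transcript 9 places in the order of levels changed. The replicate block gave 3616 calls over all genes, 6 of the 10 members and 13 pathway genes (without Nfkbiz, edgeR adjusted p = 0.0993). Il1r1 was at -0.0445 in that fit. Replicate 4 exists only among mature libraries, so with this block it did not inform the difference between the groups. Leaving out that library without a block gave 3667 calls, 13 pathway genes and Il1r1 at -0.0054. The cause of the other differences from the main fit was not tested. Il1r1 ranged from -0.13 to 0.16 with 1 library left out. Omitting both the first and the third mature library, added after the data were seen, left 6 of 10 calls. With p from the absolute difference, also added then, the log2 ratios of Il18bp to Il18 (-3.61), Il1rn to Il1b (-1.69) and Il1r1 to Il1rap (1.87) passed 0.05 (exact permutation p = 0.0286 each), as they did not by the doubled tail. Depth limits Il33 most, at 24 counts in 1 library.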
